A study of Zea mays with 24 samples.

Results

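Transcripts of the maize plastid genome were followed across leaf, anther and pollen in 2 maize lines, each compared with the inbred W23, by 5 probes. These were TC251425 and TC250914, both matched to ycf3, TC251612, matched to psbC, TC252382, matched to psbI, and CF050423, matched to psbK. The 5 probes were chosen by their EST names in the tables and a figure of the study, among 7900 probes with a value and 21939 maize probes on the array, and all 5 had a value on each of the 24 arrays. Those lists had been filled according to which tissue gave a signal, and TC251425, TC251612 and TC252382 were listed there as detected in leaf only. Differences between tissues are therefore given as a description with no test, and the ratios of these 3 probes in anthers and pollen come from signals that the study did not count as detected. For CF050423 the same holds in pollen.

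RNA of an A619 derivative and of the F1 hybrid ND101/W23 was hybridized on arrays of 2 colours against W23 RNA of the same tissue. The tissues were juvenile leaf, mature pollen and anthers of 1 mm and of 1.5 mm in length, with 3 arrays for each of the 8 comparisons. W23 was a self-pollinated line that carries the bz2 mutation, which blocks anthocyanin accumulation, and it was also the pollen parent of the hybrid onto ND101 plants, so that the plastids of the hybrid, which maize inherits through the egg, are expected to come from ND101. All plants were grown in 1 field, the leaf samples were fully expanded juvenile leaves of different plants, pollen was pooled per plant, and anthers were pooled from the upper florets, typically of 1 tassel. In each tissue the same 3 W23 samples served both lines, 1 per replicate number, so that a shift of a W23 sample enters a ratio of A619 and a ratio of ND101/W23 alike. Every value below is a log2 ratio of the line over W23, and a value below 0 stands for a lower level than in W23. The sample labels and the design figure of the study give opposite dyes for the arrays, so this direction rests on the ND101/W23 array ratios in the study's qRT-PCR table, and for A619 on the shared W23 samples. Levels of 1 probe were not set against those of another, and the tissue labels could not be checked against marker genes, since ratios within a tissue carry no level.

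Photosystem II splits water and passes electrons towards photosystem I, and both complexes sit in the thylakoid membrane of the chloroplast. Their core subunits are encoded in the plastid genome and most peripheral subunits in the nucleus, so that the complexes are built from products of both genomes. The plastid genes named here fall into 2 roles. The ycf3 protein is not a subunit but an assembly factor of photosystem I. The psbC protein is an inner antenna of photosystem II that binds chlorophyll, and psbI and psbK encode small membrane-spanning subunits of the same complex. In the RefSeq annotation of the maize plastid, psbK and psbI are neighbours, psbC lies beside psbD, and ycf3 lies beside psaA. The probe matches rest on similarity to proteins, so a name stands for the gene family of the sequence and a copy of plastid sequence in the nucleus could not be told apart from it.

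Primers of the study are the sequences at hand for these members, and the CF050423 pair is shown because this probe gave the highest ratio of any member. The forward primer has 19 bases and the reverse primer 20, written 5′ to 3′.
CF050423 forward primer: ttcgccaaattacccgaag
CF050423 reverse primer: attcaatttggcaggcagaa
The strand that each member probe reads was not given. TC251425, TC251612 and TC252382 aligned to their contigs in descending order (487 to 428, 716 to 657, and 72 to 13 with 1 mismatch), and in the list of 136 transcripts with probes for both strands, 129 had the sense probe ascending and the antisense probe descending. TC250914 stands in that list with probes at 911 to 970 (sense) and 742 to 683 (antisense), and which of them is the member was not stated. The probe number of TC250914, unlike those of the other members, was read from a picture of a figure, so its values rest on that reading.

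In juvenile leaf the ycf3 probes were lower than in W23 in both lines. TC251425 had ratios of -1.88, -0.86 and -1.54 in A619 and of -1.16, -1.44 and -1.96 in ND101/W23. All 6 were below 0, and the ranges of the 2 lines overlapped. The means were -1.43 ± 0.519 in A619 (SD, n = 3 arrays, standard error 0.228) and -1.52 ± 0.406 in ND101/W23, or 37.2% and 34.9% of W23, and both passed limma (adjusted p = 0.00255 and 0.0143). TC250914 had ratios of -3.24, -2.43 and -2.39 in A619 and of -0.85, -1.0 and -1.96 in ND101/W23. Here every A619 array was lower than every array of the hybrid, and the share of all probes separated in this way was not counted. Its means were -2.69 ± 0.480 (adjusted p = 0.000355 from limma), or 15.5% of W23, and -1.27 ± 0.602 (adjusted p = 0.0299), or 41.5%. In bulk tissue, fewer cells or plastids and less RNA per cell cannot be told apart.

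Of the probes matched to photosystem II genes, those for psbK and psbI were lower in the leaf of both lines and that for psbC in the hybrid. The strand that they read was not given, and those for psbI and psbC aligned in descending order. CF050423 (psbK) had leaf ratios of -2.04, -1.77 and -2.52 in A619, with a mean of -2.11 ± 0.380 or 23.2% of W23 (adjusted p = 0.000578 from limma). In ND101/W23 they were -0.89, -0.88 and -1.86, with a mean of -1.21 ± 0.563 or 43.2% of W23 (adjusted p = 0.0254). Arrays 1 and 2 of the hybrid lay above all of A619, and array 3 lay among them. TC252382 (psbI) had leaf ratios of -1.97, -0.20 and -0.77 in A619, the widest spread of a member, and -1.46, -1.55 and -1.47 in the hybrid, the narrowest. Its means were -0.98 ± 0.904 or 50.7% of W23 (adjusted p = 0.0354 from limma) and -1.49 ± 0.0493 or 35.5% (adjusted p = 0.0279). The call in A619 was lost without array 1 (mean -0.485, adjusted p = 0.183), without array 3 (-1.085, adjusted p = 0.0887), in the fit of its 3 arrays alone (adjusted p = 0.0985), with arrays scaled to one median absolute deviation (adjusted p = 0.0507) and by Rank Products (false discovery rate 0.44). TC251612 (psbC) had leaf ratios of -0.19, 1.04 and 0.57 in A619 and of -0.77, -1.04 and -1.10 in the hybrid, so that the signs of A619 were mixed while all 3 hybrid arrays were low. The A619 mean of 0.47 ± 0.621 missed the threshold (adjusted p = 0.132 from limma), and the hybrid mean of -0.97 ± 0.176, or 51.1% of W23, passed it (adjusted p = 0.0413).

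**Figure D1:**
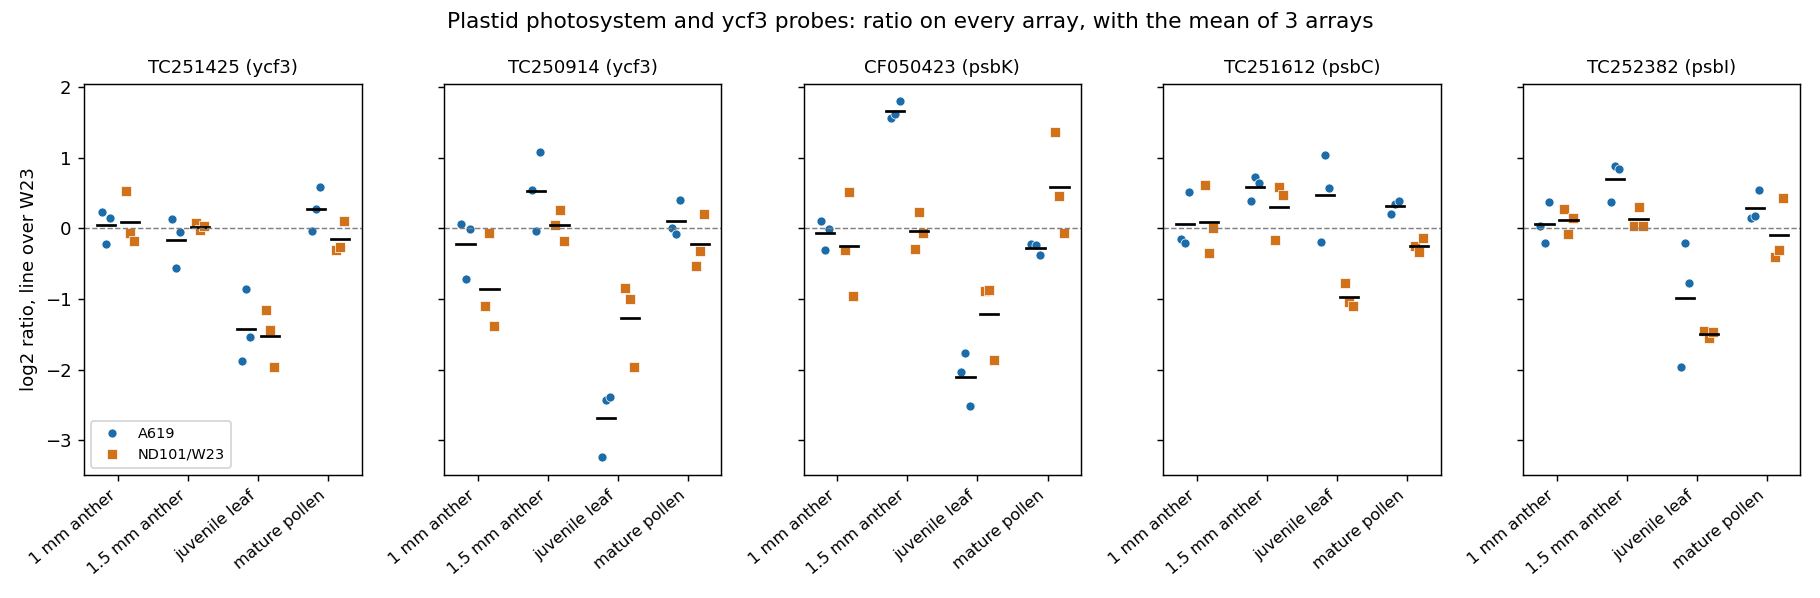
Log2 ratio of each line over W23 (vertical axis) for the 5 probes in the 4 tissues (horizontal axis), 1 panel per probe, with a point for each array and a black bar for the mean of 3 arrays. All ratios in leaf lie below 0 except 2 of A619 for TC251612, and the ratios of CF050423 in 1.5 mm anthers of A619 stand apart at 1.57 to 1.80.

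By count, 4 of the 5 probes were called lower in A619 leaf, where 18.1% of all 7817 probes tested were called lower and 42.1% were called in either direction, and 5 of 5 in ND101/W23 leaf, where 4.39% were called lower and 10.3% in either direction. The median leaf ratio of the 5 was -1.43 in A619 and -1.27 in ND101/W23, beside -0.03 and -0.01 over all probes. Both lines together called 4 members lower, TC251425, TC250914, CF050423 and TC252382, a call shared by 2.44% of all probes. All 6 leaf ratios were below 0 for these 4 members, as for 14.9% of all probes. The members were chosen with earlier results of these data known, so these shares do not measure how unusual the counts are. Array 2 was the highest of the 3 A619 leaf arrays for 4 of the 5 members, and array 3 the lowest of the hybrid for 4 of 5. Array 3 carried the opposite dye from arrays 1 and 2 in leaf, and with a dye coefficient in the fit the same 4 and 5 members were called. The hybrid calls needed all 3 arrays: without replicate 1 or 2 none of the 5 passed, and without replicate 3 CF050423 alone did, while in each of these fits all 5 means stayed at or below -0.885. Rank Products, the test of the study's methods, called TC250914 in A619 leaf and TC251425 and TC252382 in hybrid leaf.

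The lines were then compared with each other in leaf. A619 was lower than the hybrid for TC250914, with a difference of -1.42 (adjusted p = 0.0353 from limma, standard error 0.366). It was higher for TC251612, with a difference of 1.44 (adjusted p = 0.0201 from limma, standard error 0.317). These 2 of 5 stand beside 21.1% of all probes called for this difference. With arrays scaled to one median absolute deviation the difference of TC250914 was -0.52 and was not called (adjusted p = 0.457), while that of TC251612 was still called. CF050423 differed by -0.90 (standard error 0.330, adjusted p = 0.103), and the fit that pairs the arrays by their shared W23 sample, the replicate block, gave an adjusted p of 0.00981 for it. TC252382 differed by 0.51 (standard error 0.421) and TC251425 by 0.09 (standard error 0.322), and neither passed the test. The 2 ycf3 probes thus gave unlike differences between the lines, 0.09 and -1.42. Neither call held on fewer arrays throughout: the difference ran from -1.91 to -0.93 for TC250914 and from 1.125 to 1.875 for TC251612 when 1 replicate was left out, and both missed the threshold without replicate 1 (adjusted p = 0.272 and 0.0555) and without replicate 2 (0.142 and 0.101), as did TC251612 without replicate 3 (0.0917).

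**Figure D2:**
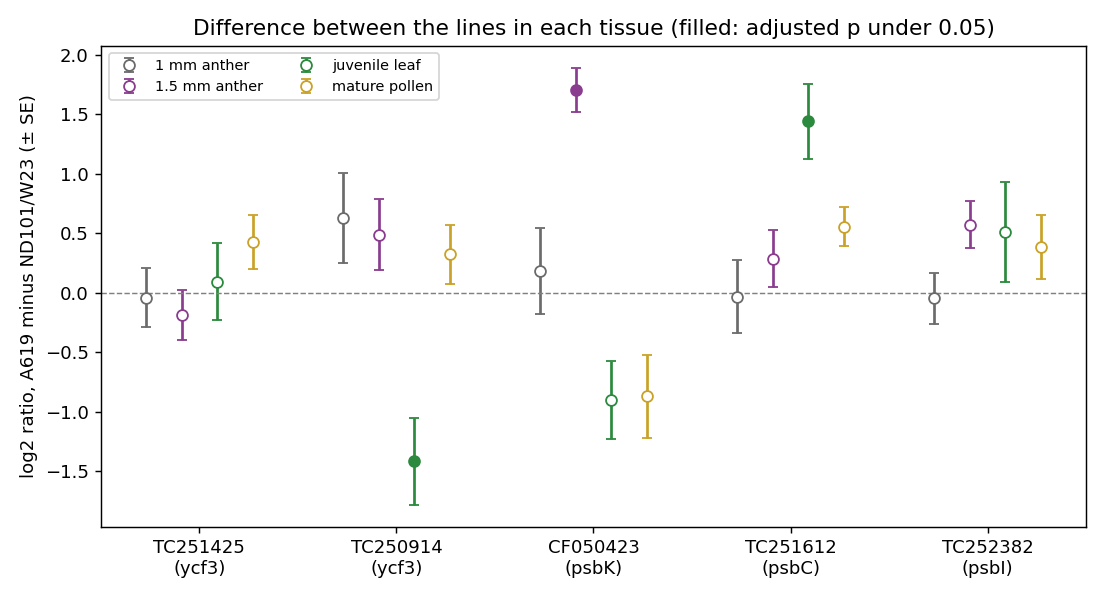
Difference of the mean log2 ratios, A619 minus ND101/W23 (vertical axis, ± standard error from limma), for each probe and tissue, filled where the adjusted p was under 0.05. The filled points are TC250914 in leaf at -1.42, TC251612 in leaf at 1.44 and CF050423 in 1.5 mm anthers at 1.71.

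In 1.5 mm anthers, where meiosis is about to begin, the psbK probe was higher in A619 than in W23. The psbI probe was also called higher there, but that call did not hold in every fit. CF050423 had ratios of 1.57, 1.62 and 1.80 in A619 and of -0.29, 0.23 and -0.07 in ND101/W23. The A619 arrays lay close together and far above those of the hybrid, which lay around 0. Their mean was 1.66 ± 0.121 (standard error 0.131), 3.17 times the level of W23 (adjusted p = 0.000822 from limma), against -0.04 ± 0.261 in the hybrid (adjusted p = 0.953). The difference between the lines was 1.71 (standard error 0.186, adjusted p = 0.00692), 1 of 5 members called where 3.66% of all probes were. It was 1.63 without replicate 1 (adjusted p = 0.107) and 1.625 without replicate 3 (adjusted p = 0.214), while the call of A619 over W23 held in each fit that left out 1 replicate. TC252382 had A619 ratios of 0.38, 0.88 and 0.84, with a mean of 0.70 ± 0.278, 1.62 times W23 (adjusted p = 0.0158 from limma), and hybrid ratios of 0.04, 0.30 and 0.04. It is one of the probes listed as not detected in anthers. Its call was lost without replicate 2 (adjusted p = 0.0521), without replicate 3 (0.185) and by Rank Products (false discovery rate 0.379). TC251612 had ratios of 0.39, 0.73 and 0.64 in A619, with a mean of 0.59 ± 0.176 (adjusted p = 0.0546), which passed in the paired fit (adjusted p = 0.0186). It is likewise listed as not detected in anthers, as is TC251425. The ycf3 probes gave 0.55, -0.04 and 1.09 (TC250914) and 0.13, -0.56 and -0.05 (TC251425) in A619, and neither mean passed. TC250914 had an unadjusted p of 0.0429 in limma. It was called without replicate 2 (mean 0.82, adjusted p = 0.03), but not without replicate 1 (0.378) or replicate 3 (0.567). By count, 2 of 5 members were called higher in A619, beside 8.58% of all probes, and 20.2% in either direction. In the hybrid no member was called by limma at this stage, none reached an unadjusted p under 0.05, and Rank Products called none, beside 4.00% of all probes called by limma.

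In 1 mm anthers, which are still dividing, no member was called in either line by limma or by Rank Products, beside 4.12% of all probes in A619 and 7.07% in ND101/W23 by limma. TC250914 in the hybrid was the one member with an unadjusted p under 0.05. Its ratios there were -1.10, -0.07 and -1.39, with a mean of -0.85 ± 0.694 (adjusted p = 0.0992 from limma), and the A619 ratios were 0.06, -0.72 and -0.01. A fit of all 24 arrays together called it (adjusted p = 0.042). CF050423 spread from -0.96 to 0.52 in the hybrid and from -0.30 to 0.11 in A619. The other 3 members lay between -0.35 and 0.61 on all 6 arrays. No difference between the lines was called for a member by limma, none reached an unadjusted p under 0.05, and 0.742% of all probes were called for it.

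Mature pollen likewise held no call by limma or Rank Products, beside 1.48% of all probes in A619 and 0.959% in the hybrid by limma, and no difference between the lines was called for any probe. The members with an unadjusted p under 0.05 were TC251612 in A619 and CF050423 in the hybrid. In pollen the signals of TC251425, TC251612, TC252382 and CF050423 were not counted as detected by the study. TC251612 had ratios of 0.20, 0.35 and 0.39 in A619 and of -0.25, -0.34 and -0.14 in the hybrid, so that the lines lay on opposite sides of W23 with a difference of 0.56 (standard error 0.164, adjusted p = 0.452 from limma). CF050423 had ratios of -0.22, -0.24 and -0.38 in A619 and of 1.37, 0.46 and -0.06 in the hybrid, whose mean of 0.59 ± 0.724 rested mostly on array 1. The ycf3 and psbI probes lay between -0.53 and 0.59 in both lines.

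Across tissues the mean ratio to W23 was lowest in leaf for most members. This concerns the ratio and not the level of the transcript, as TC251425, TC251612 and TC252382 were listed as detected in leaf only. In A619 the leaf mean minus the mean of both anther stages was -1.37 for TC251425, -2.84 for TC250914, -2.91 for CF050423 and -1.36 for TC252382, whereas it was 0.15 for TC251612. In ND101/W23 it was -1.58 for TC251425, -0.86 for TC250914, -1.06 for CF050423, -1.16 for TC251612 and -1.61 for TC252382. The median difference was -1.37 in A619 and -1.16 in the hybrid, beside -0.02 and -0.01 over all probes, of which the middle 90% lay between -1.52 and 1.54 in A619 and between -0.84 and 1.06 in the hybrid. In A619, TC251425, TC250914 and CF050423 had their 3 leaf ratios below all 9 ratios of the other tissues, as did 11.0% of all probes. In the hybrid TC251425, TC251612 and TC252382 did, as did 4.93%. TC251425, a ycf3 probe, did so in both lines, a pattern of 1.66% of probes. The 3 probes of the hybrid are those listed as detected in leaf only, and their other ratios come from signals not counted as detected. The same holds for CF050423 in pollen. The shares of all probes, which were not chosen that way, therefore do not measure how unusual the pattern is. Leaf minus pollen in A619 was -1.70 for TC251425, -2.79 for TC250914, -1.83 for CF050423, -1.27 for TC252382 and 0.16 for TC251612, and in the hybrid it lay between -1.80 and -0.73 for all 5.

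Among themselves the 5 members were not one pattern. Over the 24 arrays, which share W23 samples in pairs, the correlation of TC251425 with TC252382 was 0.848 and that of TC250914 with CF050423 0.829, while TC251612 had 0.174 with TC250914 and 0.214 with CF050423. The 2 ycf3 probes had 0.768. Without the 6 leaf arrays, over the other 18, they fell to 0.143, TC251425 with TC252382 to 0.165 and TC250914 with CF050423 to 0.529, while TC251612 with TC252382 rose from 0.687 to 0.769. The neighbouring genes psbK and psbI had 0.665 over 24 arrays and 0.296 without leaf. These correlations are a description over arrays that differ in tissue and line. For TC251425, TC251612 and TC252382 the 18 arrays without leaf hold only signals that the study did not count as detected. The correlations without leaf that involve these probes therefore do not show how the transcripts vary together.

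Of the other plastid-encoded transcripts on the list, 7 of 8 had a value on all 24 arrays, and they fell on different sides in A619 leaf. A further ycf3 probe, not a member, had leaf ratios of -3.19, -3.23 and -2.05 in A619, with a mean of -2.82 (adjusted p = 0.00029 from limma), and of -0.34, -0.20 and -0.87 in the hybrid, with a mean of -0.47 (adjusted p = 0.272). It was thus low in A619 and near W23 in the hybrid, with a difference between the lines of -2.35 (standard error 0.361, adjusted p = 0.00597). TC258783, matched to rpl16 of the plastid ribosome, was lower in A619 leaf at -1.64 (adjusted p = 0.00322 from limma) and had -0.82 in the hybrid (adjusted p = 0.106), and a probe matched to ndhF of the plastid NAD(P)H dehydrogenase was lower in A619 at -0.84 (adjusted p = 0.022) with -0.32 in the hybrid. TC263487, matched to psbB, the other inner antenna of photosystem II, was higher in A619 leaf at 0.85 (adjusted p = 0.0133 from limma) and had -0.56 in the hybrid. This probe is listed by the study as antisense. The petB probe (TC274654) and the atpB probe (TC248277) also aligned in descending order, with no strand given. So did TC251425, TC251612 and TC252382 among the members. The psaB probe, listed as sense, aligned in ascending order, as did those for ndhF, the psbB gene cluster and the further ycf3 probe. TC274654, matched to petB of the cytochrome complex, had 0.51 in A619 and was lower in the hybrid at -1.30 (adjusted p = 0.0279), and a probe for the psbB gene cluster had 0.27 and was lower in the hybrid at -1.14 (adjusted p = 0.0449). For these 3 A619 exceeded the hybrid, by 1.40, 1.82 and 1.41 (each called by limma), the same side as psbC among the members. Of the 7, 3 were called for this difference with A619 higher and 1, the further ycf3 probe, with A619 lower. Among all probes, 21.1% were called for this difference in either direction. TC260531, matched to psaB of photosystem I, had -0.37 and 0.03 and passed in neither. In all, 3 of 7 were called lower and 1 higher in A619 leaf, with a median of -0.37, beside 18.1% of all probes called lower and 24.0% higher there. In the hybrid 2 of 7 were called lower, with a median of -0.56, beside 4.39% of all probes. TC248277, matched to atpB of the ATP synthase, lacked a value on 1 array and was not tested in this fit, and its leaf ratios were -1.61, -0.39 and -0.10 in A619 and -0.27, -0.46 and -0.84 in the hybrid.

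The nuclear-encoded photosystem transcripts on the list were 5 probes for psaF, psbR and psbW. In leaf, 0 of 5 were called lower by limma in either line, beside 18.1% of all probes in A619 and 4.39% in the hybrid, and 1 of 5 was called higher in A619, beside 24.0%. With so few probes these counts are no result about the list. At an unadjusted p under 0.05 in limma, TC248226 (psbR) had a ratio below 0 in the hybrid, with a mean of -0.42, and no probe of the list did in A619. TC270718 (psbW) went the other way in the hybrid, with a mean of 0.79 (unadjusted p = 0.0058, adjusted p = 0.0528 from limma). The probe called higher in A619 was one of TC248243 (psaF), at 0.71 (adjusted p = 0.0285 from limma), while the second probe of TC248243 had 0.13. The median of the 5 in leaf was -0.01 in A619 and 0.04 in the hybrid.

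**Figure D3:**
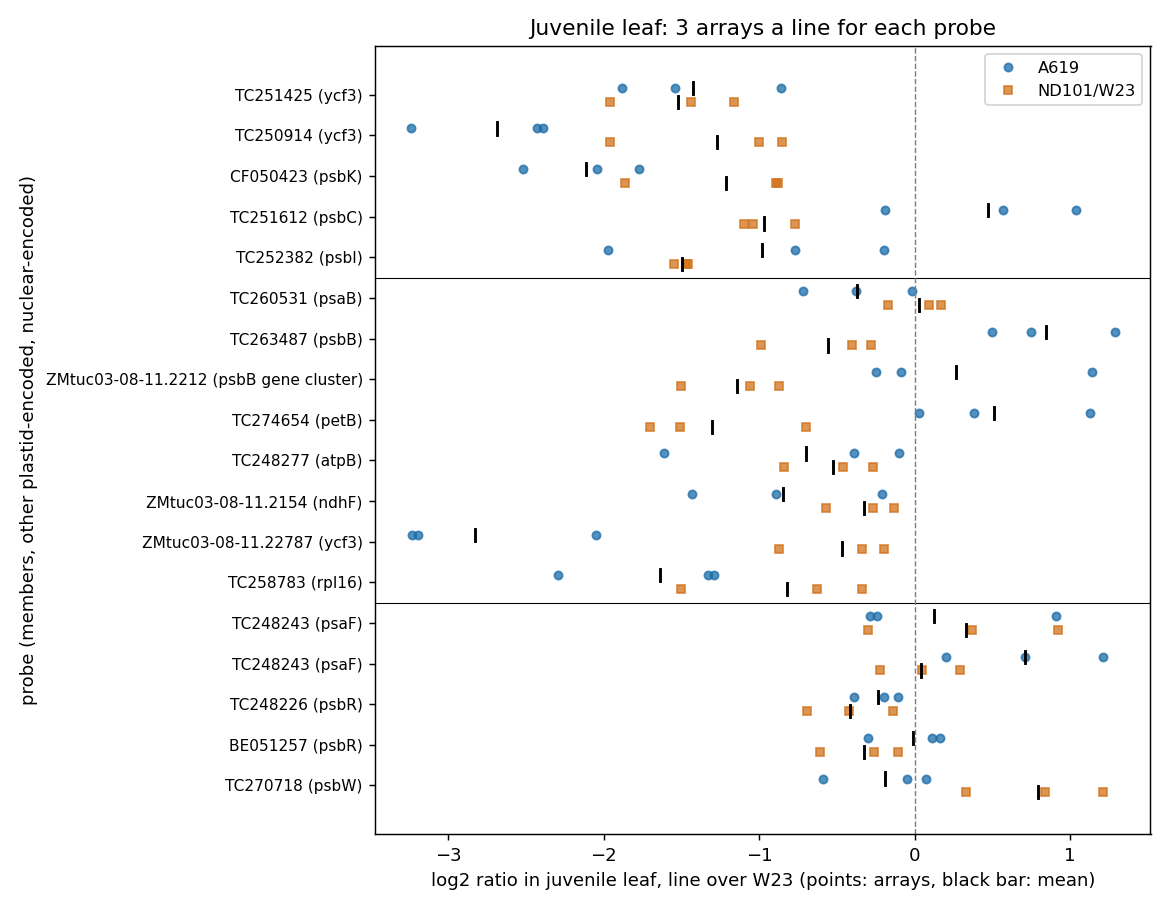
Log2 ratio of each line over W23 in juvenile leaf (horizontal axis) for the 5 members, 8 other plastid-encoded probes and 5 probes of nuclear-encoded photosystem subunits (vertical axis, separated by lines), with a point for each array and a black bar for the mean. For psbC, psbB, the psbB gene cluster and petB the A619 points lie to the right of the hybrid points. For TC250914, the further ycf3 probe and CF050423 the A619 means lie to the left. They also lie to the left for rpl16, ndhF, psaB, atpB, psbW and a psaF probe.

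For each member, the probes whose 24 ratios most resembled its own were found by Pearson correlation, as a description. They were taken from 1217 probes with a product name in the study's stage-specific, qRT-PCR and cell cycle lists, and not from the whole array. For TC251425, TC251612 and TC252382 the ratios outside leaf come from signals that the study did not count as detected, and for CF050423 those in pollen do. For TC250914 (ycf3) they were the RuBisCO small subunit (TC268077, 0.848), the chloroplast NADP-dependent malic enzyme (TC270539, 0.846) and an ABC transporter-like transcript (TC261773, 0.846), and rpl16 (TC258783) from the plastid list had 0.872. For TC251612 (psbC) they were psbB (TC263487, 0.801), TC271371 (0.794) and petB (TC274654, 0.786). For CF050423 (psbK) they were a cysteine synthase-like transcript (TC273920, 0.837), a transcript similar to a late embryogenesis abundant protein (0.824) and TC262008 (0.779). TC251425 (ycf3) was closest to TC279209 (0.86), TC272236 (0.818) and a transcript similar to a peroxisomal membrane protein (0.811), none of them named for a plastid protein. TC252382 (psbI) was closest to TC253825 (0.805), to the alpha subunit of the pyrophosphate-dependent phosphofructokinase (TC272124, 0.801) and to a transcript similar to a rice protein without a stated function (0.798).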

How the data were processed

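The deposited values were log2 ratios. The authors had taken them from scanned images with Agilent Feature Extraction, dropped saturated spots and probes not above the negative controls, applied a rank-invariant and loess normalization on every array, and brought triplicates to equal variance. Values existed for 7884 to 7900 probes per array, with array medians of -0.04 to 0.04. The RNA was amplified and labeled with a low-input linear amplification kit, and how far plastid RNA without long poly(A) tails was amplified was not tested. Arrays of opposite dye correlated at 0.116 to 0.793 within a comparison, so that dye swaps had been turned. Labels and the design figure of the study give opposite dyes. The direction was therefore set from the array column of the study's qRT-PCR table, where 36 of 36 ND101/W23 values above 0.5 in size had the same sign as the deposited ratio, and A619 followed through the shared W23 samples. An offset of 3 joined the study's probe numbers to the values (22 of 23 accessions equal, 95.7% of listed numbers with a value). Which values are above background is not known from ratios.

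Probes with all 24 values (7817) were tested per tissue on 6 arrays with a mean for each line (limma 3.58.1, R 4.3.3), with Benjamini-Hochberg adjustment over all of them. A probe was called at an adjusted p under 0.05 with 3 ratios of the same sign, and a line difference at an adjusted p under 0.05. Standard errors come from these fits. Rank Products (200 permutations), median centring, equal median absolute deviations, a 2-of-3 filter, a dye coefficient, fits on 3 or 24 arrays, no sign requirement, the replicate block and leaving out each replicate were alternatives. Replicate numbers mark the shared W23 sample (labels and design figure), and same-number deviations correlated between the lines at 0.2 to 0.645 (12 pairs), different numbers at -0.575 to 0.222. The deviations were taken from the mean of the 3 arrays of a line, so they cancel within it. Low values for different numbers therefore follow from positive ones for the same number. Named were the members, the lists of other plastid-encoded and nuclear-encoded photosystem transcripts, and for each member the 3 most similar probes. These had a product name in the study's lists. Members and lists were chosen with earlier results of these data known. The shares of all probes given beside their counts therefore do not measure how unusual those counts are. The number of arrays limits the precision. Summaries were made in pandas 2.3.3 and numpy 2.4.6 (Python 3.11.15) and plots in matplotlib 3.10.9, and the fit was tested on simulated data.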

Additional observations from a re-analysis of the deposited data

Results flagged for a closer look

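The effect of the line differed between A619 and ND101/W23 by a test of the difference (limma) for 3 results. In juvenile leaf, A619 minus ND101/W23 was -1.42 for TC250914 (ycf3), which was -0.52 and was not called with arrays scaled to one median absolute deviation (adjusted p = 0.457), and 1.44 for TC251612 (psbC), and in 1.5 mm anthers it was 1.71 for CF050423 (psbK).

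Opposite signs on all 3 arrays of 2 tissues appeared for 5 results over all pairs of tissues, and these differences between tissues were not tested. The share of all probes with such a pattern was not counted, so this number is no result about the members. For CF050423 in A619, leaf minus 1.5 mm anther was -3.77 and pollen minus 1.5 mm anther -1.94, with the pollen signal listed by the study as not detected. For TC252382 (psbI), leaf minus 1.5 mm anther was -1.68 in A619 and -1.62 in ND101/W23, and leaf minus pollen was -1.27 in A619. The study listed the signal of TC252382 as not detected in anthers or pollen.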

How the results depend on the processing

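Over all alternatives, 119 of the counts of called members stayed within 1.5 times the main count or at 0 and 13 moved. Rank Products gave 1 member in A619 leaf (TC250914), 2 in hybrid leaf and 1 in A619 1.5 mm anthers (CF050423). Equal median absolute deviations left 1 called line difference in leaf (TC251612, with TC250914 at -0.52 and an adjusted p of 0.457), and the fit of all 24 arrays called 1 member in 1 mm anthers of the hybrid (TC250914). Leaving out 1 replicate gave 0 to 1 called members in hybrid leaf, 3 to 4 in A619 leaf, 1 to 2 in A619 1.5 mm anthers, 0 to 2 line differences in leaf and 0 to 1 in 1.5 mm anthers, fits with fewer arrays by construction. The replicate block, which pairs arrays by their W23 sample, gave 3 members in A619 1.5 mm anthers (TC251612 added at an adjusted p of 0.0186) and 3 line differences in leaf (CF050423 added at 0.00981), and changed no other call. All 5 hybrid and 3 of 5 A619 leaf means stayed below 0 at the same call under centring, equal deviations, the dye coefficient, the 2-of-3 filter and the 3-array fit.

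The 23 values that changed sign were all uncalled. With 1 replicate left out, values in 1 mm anthers ran, in A619, from -0.035 to 0.19 (TC251425), -0.365 to 0.025 (TC250914), -0.155 to 0.05 (CF050423), -0.175 to 0.185 (TC251612) and -0.085 to 0.205 (TC252382), in the hybrid from -0.125 to 0.23 (TC251425), -0.635 to 0.105 (CF050423) and -0.17 to 0.31 (TC251612), and for line differences from -0.225 to 0.09 (TC251425), -0.2 to 0.685 (CF050423), -0.305 to 0.33 (TC251612) and -0.18 to 0.045 (TC252382). In 1.5 mm anthers they ran from -0.305 to 0.04 for TC251425 in A619, and from -0.18 to 0.08 for CF050423 and -0.065 to 0.155 for TC250914 in the hybrid, in leaf from -0.15 to 0.5 for the line difference of TC251425, and in pollen from -0.04 to 0.2 for TC250914 in A619 and from -0.355 to 0.06 for TC252382 in the hybrid. The dye coefficient gave 0.0042 for TC252382 in hybrid pollen, and equal median absolute deviations 0.0071 for the line difference of TC251612 in 1 mm anthers. Ratios give no signal over background, so what dim signals limit could not be assessed.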
